A study of Mus musculus with 24 samples.

Results

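NMDA (N-methyl-D-aspartate) receptors are glutamate-gated cation channels of the synapse. The transcripts of 6 of their subunit genes were followed in mouse cortex after stroke. They were Grin1, Grin2a, Grin2b, Grin2c, Grin2d and Grin3a, taken by gene symbol from the 14769 genes of the series. The rule used no measured value, and the family was picked with earlier results of these data known. All 6 were listed in each of the 4 deposited expression tables, and Grin3b, the gene of another subunit, was listed in none of them. The tissue was cortex of male mice, 3 to 4 months old, whose middle cerebral artery had been closed with a filament for 1 h and then reopened for 1 day, and its RNA was sequenced. All animals had this surgery and are labelled with the strain C57BL/6N-Cdr1asem1Nikr. Their genotype was WT or KO for ciRS-7 (Cdr1as), a circular RNA of neurons. Each cortex sample is marked CL or PI in the labels, which do not spell these marks out, and each animal gave 1 sample of each kind. The 24 libraries thus come from 6 WT and 6 KO animals and form 4 groups of 6, named by side and genotype (CL WT and PI WT, then CL KO and PI KO).

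An NMDA receptor is an assembly of subunits in which the product of Grin1, which binds glycine or D-serine, is obligatory. It is joined by subunits that bind glutamate, the products of Grin2a, Grin2b, Grin2c and Grin2d, or by the glycine-binding product of Grin3a. The channel opens when glutamate is bound and depolarisation removes a magnesium ion from its pore, and it lets calcium enter the cell. In adult forebrain the receptors of principal neurons are built mainly with the Grin2a and Grin2b subunits. Calcium entry through NMDA receptors during ischemia is a classical route of excitotoxic injury. The study placed ciRS-7 in a network of noncoding RNAs and stroke outcome, and ciRS-7 is known for its many binding sites for the microRNA miR-7.

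Both forms of miR-7 in the RefSeq table for GRCm38.p6 share their seed, bases 2 to 8, which is in capitals here because it defines the matches searched for in the subunit transcripts.
mmu-miR-7a-5p: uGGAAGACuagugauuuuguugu
mmu-miR-7b-5p: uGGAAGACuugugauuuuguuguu

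The longest annotated 3′ UTR of each subunit (GENCODE M21, GRCm38) was searched on the transcript strand for GTCTTCCA (an 8mer match), GTCTTCC without the final A (7mer-m8) and TCTTCCA without the leading G (7mer-A1). The 3 kinds were counted without overlap. The UTR of Grin2b, 18865 bases long, held 5 matches, of which 1 was an 8mer, 2 were 7mer-m8 and 2 were 7mer-A1. The UTR of Grin2a, 9929 bases long, held 6, of which 2 were 7mer-m8 and 4 were 7mer-A1, and that of Grin2c (402 bases) held 1 7mer-A1 match. The letters were not found in the UTRs of Grin1 (1187 bases), Grin2d (897 bases) and Grin3a (3615 bases). A match of any kind was in 27.4% of the 12493 genes with an annotated 3′ UTR, an 8mer in 4.39%, and an 8mer or 7mer-m8 in 14.7%. Among the 640 genes whose UTR was at least 5000 bases long, 71.9% held a match of any kind. Over all these UTRs there were 0.207 matches per kilobase. The shares with an 8mer or 7mer-m8 were not taken among long UTRs alone. The 8mer and 7mer-m8 matches are shown with their flanks, because they match the whole seed. Whether miR-7 binds them was not tested. The match is in capitals, and the position is that of the match on the minus strand of GRCm38.
Grin2b 8mer, chr6:135727885-135727892: ccactcacccaGTCTTCCAtggccatcagg
Grin2b 7mer-m8, chr6:135729421-135729427: ctctgaaacctGTCTTCCtgcggatctgt
Grin2b 7mer-m8, chr6:135723166-135723172: cttgttgctctGTCTTCCtgcagcctttg
Grin2a 7mer-m8, chr16:9577184-9577190: ctttcattgtaGTCTTCCcccaagacaca
Grin2a 7mer-m8, chr16:9574617-9574623: cctatggctctGTCTTCCtgcatgtgact

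The 6 genes lie on different chromosomes, all on the minus strand and all annotated as protein coding (GENCODE M21, GRCm38). Grin1 spans chromosome 2 from 25291181 to 25319187. Grin2a spans chromosome 16 from 9567898 to 9995560, and Grin2b spans chromosome 6 from 135713233 to 136173511. Grin2c is on chromosome 11 from 115249169 to 115267243, and Grin2d is on chromosome 7 from 45831883 to 45878378. Grin3a spans chromosome 4 from 49661611 to 49845744.

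Expression was deposited as log2 CPM, log2 of the reads of a gene as parts of 1 M (megareads) of its library, in a separately scaled table for each pair of groups. Comparisons were therefore made within a table. In every gene the lowest and the second lowest value of a group were equal, and likewise at the top, since values had been pulled to the group's quartiles before deposit. The 4 inner values of each group of 6 could be solved from this and the outermost library on each side could not. The ranges below run from the second lowest to the second highest library, and ± gives the standard error (SE) of a trimmed mean. A library's own deposited value is named as such. Depth, read from the step between low values, was 3.74 to 10.5 M reads per library (median 6.92). CL KO replicate 6 was the shallowest, and without it the range began at 5.27 M reads. That library was an inner value in 10.5% to 10.6% of genes, against 19.3% to 47.0% for the others. It was outermost or second outermost for each of the 6 subunits, highest for Grin1, Grin2b, Grin2c and Grin2d and lowest for Grin2a and Grin3a. Cdr1as itself stood at 3386 to 3809 CPM in CL WT and 2594 to 3004 CPM in PI WT. The highest value that could be solved was 0.148 CPM among CL KO libraries and 0.169 CPM among those of PI KO. Both are under the level of 3 reads in the deepest library of the group (0.286 and 0.431 CPM). As a check of the labelled tissue, all 10 neuron markers and all 8 markers of excitatory neurons were listed, while of 4 markers of cerebellar granule cells Gabra6 and Cbln3 were not. The other 2, Calb2 and Zic1, were listed. Their summed deposited level was 13.3 to 18.2 CPM from the lowest to the highest library in the tables of PI with CL.

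Grin2a and Grin2b transcripts were lower in PI than in CL cortex in both genotypes. Grin2a fell by 22.6% in WT and fell by 18.5% in KO. Grin2b fell by 15.2% in WT and fell by 22.8% in KO. The other 4 subunits did not pass the test in either genotype. Calls used a moderated trimmed-mean test (limma's empirical Bayes step, Benjamini-Hochberg adjustment over all genes of a table, adjusted p under 0.05). It called 2 of the 6 subunits lower in WT, where 5.40% of all genes were called lower, and 2 of 6 in KO, where 4.94% were. The median log2 fold change of the 6 subunits was -0.19 in WT and -0.27 in KO, beside 0.01 and -0.00068 over all genes. Tissue was measured in bulk, so fewer cells that express a gene and less RNA per cell cannot be told apart.

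**Figure D1:**
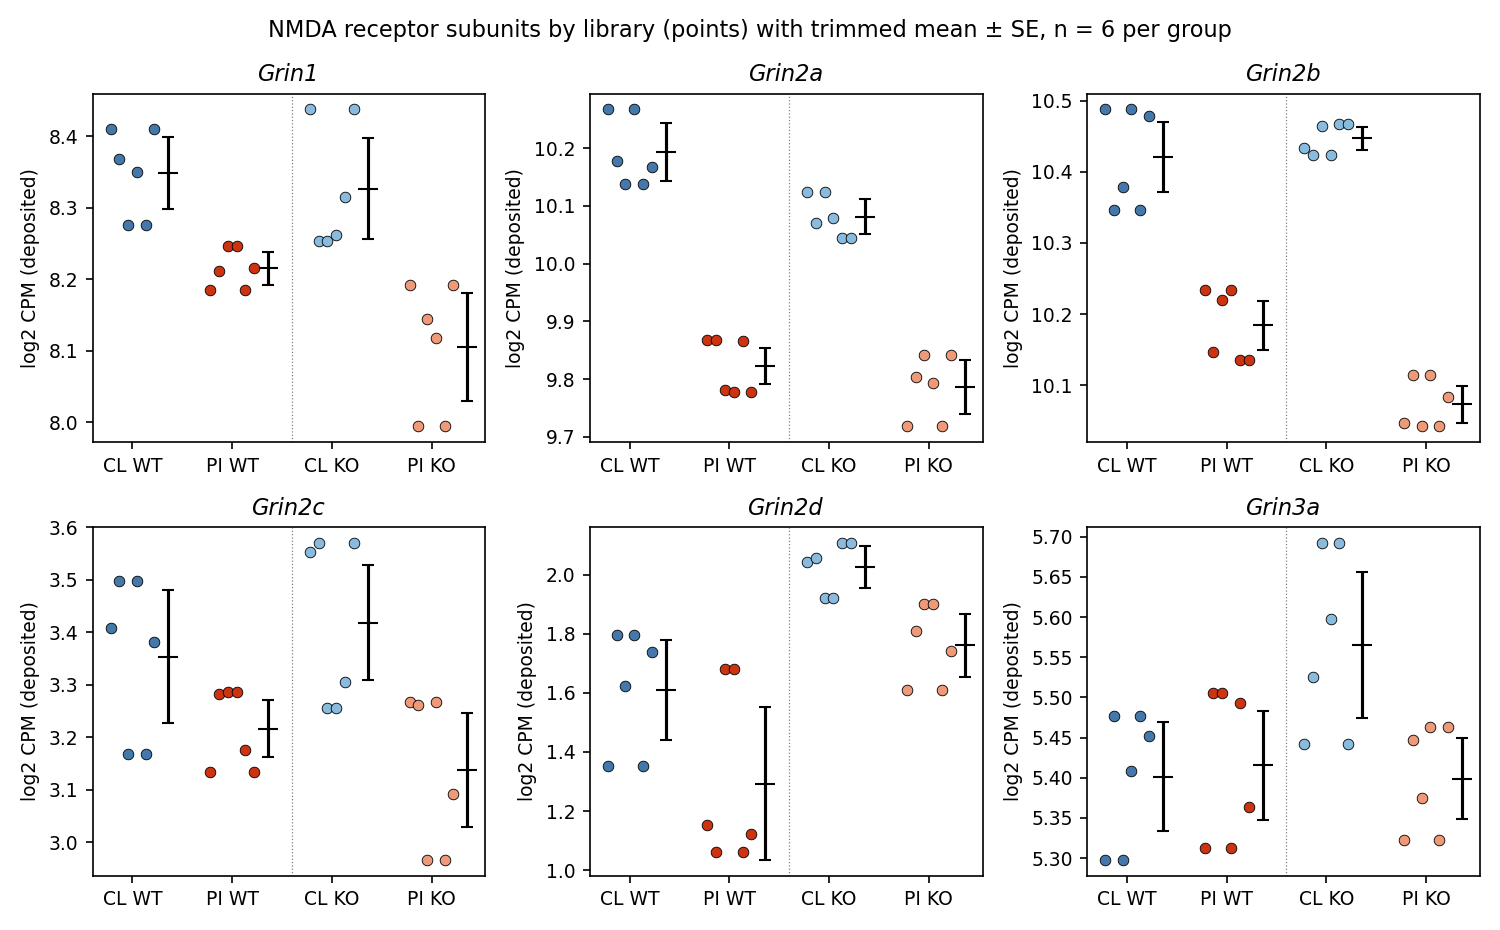
Deposited log2 CPM of each subunit (vertical axis, a separate scale per panel) in the 6 libraries of each group, with the trimmed mean and its standard error (SE) beside the points; CL WT and PI WT come from one table and CL KO and PI KO from another. The PI points of Grin1, Grin2a and Grin2b lie below all CL points of the same genotype. Those of Grin2c and Grin3a overlap the CL points in both genotypes. Points are values drawn in to group quartiles, so outer points are tied and groups look further apart. The points of Grin2d overlap in WT and are just apart in KO.

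Grin1 encodes the obligatory subunit. In WT it ran from 305 to 343 CPM in CL (median 328) and from 289 to 306 CPM in PI (median 297). In KO it ran from 305 to 357 CPM in CL (median 313) and from 248 to 296 CPM in PI (median 280). The inner values of CL and PI just overlapped in WT and were apart in KO, by 0.04 on the log2 scale. For PI against CL it had a log2 fold change of -0.13 in WT (SE 0.06, adjusted p = 0.179, trimmed-mean test) and -0.22 in KO (SE 0.08, adjusted p = 0.120). Neither passed the threshold. The deposited value of PI was below that of CL in 6 of 6 animals of each genotype. The drawn-in values of the groups do not overlap, so any pairing of libraries would give this count. The 95% intervals were -0.26 to -0.01 in WT and -0.40 to -0.04 in KO. In CL KO, replicates 1 and 6 were the tied top pair at 347 CPM in the deposited values, with the other libraries at 305 to 319 CPM. In PI KO, replicates 2 and 5 were the tied low pair at 255 CPM, with the others at 278 to 292 CPM. Every group has such tied pairs, and a tied value is not the level of either library. Limma was also run on the deposited values, whose spread is too small. It called Grin1 lower without a block (adjusted p = 0.00132 in WT and 0.00122 in KO), where it called 44.6% of all genes in WT and 46.5% in KO. With the animal as a block it called Grin1 too (adjusted p = 0.00346 in WT and 0.000290 in KO), beside 45.6% and 47.1% of all genes.

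Grin2a encodes the glutamate-binding subunit that becomes prominent as the forebrain matures. In WT it ran from 1119 to 1258 CPM in CL (median 1154) and from 877 to 934 CPM in PI (median 906). In KO it ran from 1050 to 1128 CPM in CL (median 1079) and from 828 to 926 CPM in PI (median 890). The inner values of PI lay below those of CL in both genotypes, by 0.26 on the log2 scale in WT and 0.18 in KO. Such a separation was found for 13.1% of all genes in WT and 13.4% in KO. The log2 fold change was -0.37 in WT (SE 0.06, 95% interval -0.50 to -0.24, adjusted p = 0.00177, trimmed-mean test). It was -0.30 in KO (SE 0.06, 95% interval -0.42 to -0.17, adjusted p = 0.00675). All 12 animals had a lower deposited value in PI, by 0.27 to 0.49 in WT and 0.20 to 0.41 in KO on the log2 scale. That count follows from the separation of the groups, and these differences are between drawn-in values. With a prior variance that did not depend on the level, the KO call of Grin2a was lost (adjusted p = 0.0552), and 5.15% of all genes were called. In WT, 5.45% of all genes had a lower fold change than Grin2a.

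Grin2b encodes the glutamate-binding subunit that predominates in the immature forebrain and stays abundant in adult cortex. In WT it ran from 1293 to 1439 CPM in CL (median 1379) and from 1123 to 1208 CPM in PI (median 1163). In KO it ran from 1370 to 1418 CPM in CL (median 1398) and from 1053 to 1116 CPM in PI (median 1071). CL KO was the tightest of these groups, and its lowest inner value was 0.30 above the highest of PI KO on the log2 scale. In WT the gap was 0.10. The log2 fold change was -0.24 in WT (SE 0.06, 95% interval -0.37 to -0.11, adjusted p = 0.0228, trimmed-mean test). It was -0.37 in KO (SE 0.05, 95% interval -0.48 to -0.27, adjusted p = 0.000507). Each of the 12 animals had a lower deposited value in PI, by 0.16 to 0.34 in WT and 0.31 to 0.43 in KO on the log2 scale. This too follows from groups that do not overlap, and the differences are between drawn-in values. The WT call of Grin2b was lost with a prior variance that did not depend on the level (adjusted p = 0.0896), where 7.01% of all genes were called.

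The larger estimate was that of Grin2a in WT and that of Grin2b in KO. Whether the changes differ between genotypes was tested over 14211 genes by the interaction, which is the PI minus CL change of KO less that of WT. It was 0.07 for Grin2a (SE 0.08, 95% interval -0.10 to 0.25) and -0.14 for Grin2b (SE 0.08, 95% interval -0.29 to 0.02). Adjusted p was 0.992 for both by the trimmed-mean test. The test called 0 of the 6 subunits and 0 of all genes (0%), and at an unadjusted p under 0.05 it held 0 subunits and 4.55% of all genes. On the deposited values limma called 1 subunit, Grin2b (adjusted p = 0.0248), and 13.7% of all genes. It also called 1 with the block, beside 15.6% of all genes, and 1 without CL KO replicate 6, beside 10.8%. The level of Grin2b relative to Grin2a, as a difference of trimmed means, was 0.23 on the log2 scale in CL WT and 0.36 in PI WT. In KO it was 0.37 in CL and 0.29 in PI. These differences describe each group and were not tested.

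Grin2c and Grin2d encode the remaining glutamate-binding subunits, known for the cerebellum (Grin2c) and for interneurons and subcortical regions (Grin2d). Both were scarce here. The median level of Grin2c corresponded to 40 to 111 reads per library and that of Grin2d to 14 to 43, against 5234 to 14398 for Grin2b. Grin2c ran from 8.56 to 11.5 CPM in CL WT (median 10.5) and from 8.69 to 9.77 CPM in PI WT (median 9.38). In KO it ran from 9.45 to 11.9 CPM in CL (median 10.8) and from 7.59 to 9.65 CPM in PI (median 9.04). CL and PI overlapped in both genotypes, and the deposited value of PI was lower in 4 of 6 WT and 5 of 6 KO animals. The log2 fold change of Grin2c was -0.14 in WT (SE 0.13, adjusted p = 0.600) and -0.28 in KO (SE 0.15, adjusted p = 0.266). Its 95% intervals, -0.43 to 0.15 and -0.60 to 0.04, hold changes as large as those of Grin2a.

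Grin2d ran from 2.40 to 3.53 CPM in CL WT (median 3.21) and from 2.06 to 3.63 CPM in PI WT (median 2.20). Within PI WT, replicates 3 and 4, the tied top pair, had deposited values of 3.21 CPM and the other 4 libraries had 2.08 to 2.22. In KO it ran from 3.69 to 4.36 CPM in CL (median 4.14) and from 2.96 to 3.81 CPM in PI (median 3.42). The inner values of the KO groups overlapped slightly. The deposited value of PI was lower in 5 of 6 WT and 6 of 6 KO animals. In KO the drawn-in values are just apart, unlike the inner values, so any pairing would give 6 of 6. Between PI and CL its log2 fold change was -0.32 in WT (SE 0.28, 95% interval -0.92 to 0.29, adjusted p = 0.554) and -0.27 in KO (SE 0.19, 95% interval -0.67 to 0.14, adjusted p = 0.423). Both intervals for Grin2d hold changes as large as those of Grin2a, and also 0.

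Grin3a encodes a glycine-binding subunit known to lower the calcium permeability of the receptor. It ran from 38.3 to 44.8 CPM in CL WT and from 39.3 to 45.5 CPM in PI WT, with a median of 43.1 in both. In KO it ran from 42.6 to 52.9 CPM in CL (median 47.2) and from 39.5 to 44.3 CPM in PI (median 42.6). The groups overlapped in both genotypes. Grin3a had a log2 fold change of 0.01 in WT (SE 0.09, 95% interval -0.17 to 0.20, adjusted p = 0.947). It was -0.02 when libraries were centred on their median gene, so its sign in WT depends on the scaling. In KO it was -0.17 (SE 0.09, 95% interval -0.37 to 0.04, adjusted p = 0.301). The deposited value of PI was lower in 2 of 6 WT and 5 of 6 KO animals. The interaction was -0.18 (SE 0.13, adjusted p = 0.992). In KO, limma on the deposited values called Grin2c, Grin2d and Grin3a lower with the animal as a block (adjusted p = 0.00665, 0.0461 and 0.0231) and without it (adjusted p = 0.0126, 0.0160 and 0.0139). Without CL KO replicate 6 it called all 6 subunits lower in KO, beside 44.0% of all genes.

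**Figure D2:**
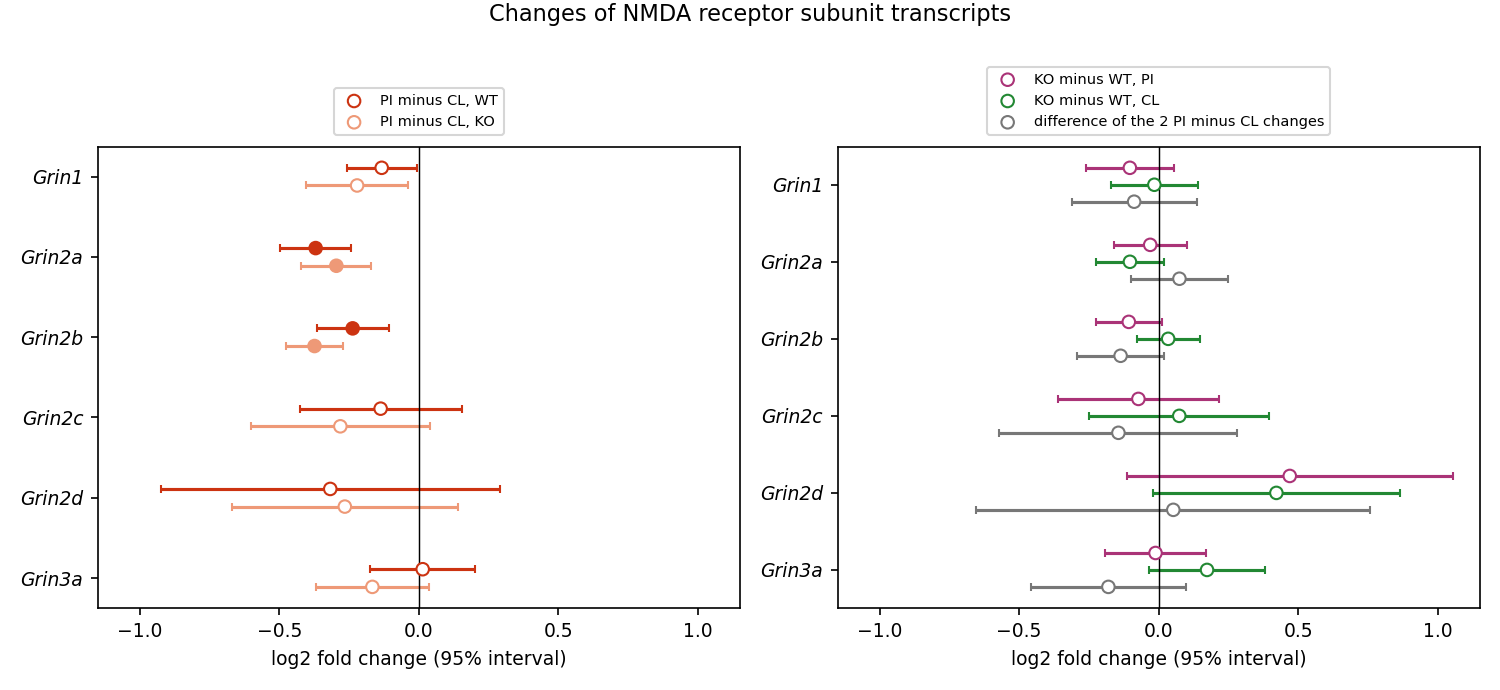
Log2 fold change of each subunit with its 95% interval, for PI against CL in each genotype (left) and for KO against WT on each side with the difference of the PI minus CL changes (right); filled points have an adjusted p under 0.05 by the trimmed-mean test. The 4 filled points are Grin2a and Grin2b on the left, at -0.37 and -0.24 in WT and -0.30 and -0.37 in KO.

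KO and WT were next compared within a side. No subunit passed the test on either side. In PI, 0 of 6 were called, where 0.0208% of all genes were, and in CL 0 of 6, where 0.0279% were. At an unadjusted p under 0.05 there were also 0 subunits on each side, beside 5.75% of all genes in PI and 5.73% in CL. From the deposited values limma called 2 subunits in PI, where it called 16.5% of all genes, and 3 in CL, where it called 16.1%. With the replicate number as a block it called 2 and 3, beside 12.5% and 13.0% of all genes, although these numbers mark different animals in WT and KO. Without CL KO replicate 6 it called 3 subunits in CL, beside 12.4% of all genes. All of these libraries also served in the comparisons of PI with CL above.

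For Grin1 the KO minus WT log2 fold change was -0.10 in PI (SE 0.07, adjusted p = 0.884, trimmed-mean test) and -0.02 in CL (SE 0.07, adjusted p = 0.993). PI KO ran from 254 to 303 CPM and PI WT from 295 to 312 CPM in their shared table. CL KO ran from 299 to 349 CPM and CL WT from 298 to 336 CPM. The groups overlapped on both sides. For Grin2a the differences were -0.03 in PI (SE 0.06, adjusted p = 0.963) and -0.10 in CL (SE 0.06, 95% interval -0.22 to 0.02, adjusted p = 0.878). CL KO ran from 1032 to 1106 CPM, overlapping CL WT at 1090 to 1229 CPM. In PI, KO ran from 846 to 948 CPM and WT from 896 to 951 CPM. Grin2a was called lower in CL KO by limma on the deposited values (adjusted p = 0.0213).

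For Grin2b the KO minus WT difference was -0.11 in PI (SE 0.05, 95% interval -0.23 to 0.01, adjusted p = 0.854, trimmed-mean test). PI KO ran from 1077 to 1142 CPM and PI WT from 1147 to 1234 CPM. The inner values were just apart, by 0.0066 on the log2 scale, as were those of 4.57% of all genes with KO the lower. In CL the difference was 0.03 (SE 0.05, 95% interval -0.08 to 0.15, adjusted p = 0.978), with CL KO at 1345 to 1393 CPM inside the range of CL WT, 1264 to 1403 CPM. Grin2b was called lower in PI KO by limma on the deposited values (adjusted p = 0.0168). The 95% intervals for Grin2b reach from -14.5% to 0.817% in PI and from -5.30% to 10.7% in CL.

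Grin2d had the largest estimates of the 6 subunits between genotypes, higher in KO on both sides and with neither passing the test. In PI, KO ran from 3.02 to 3.89 CPM and WT from 2.09 to 3.70 CPM. The log2 fold change was 0.47 (SE 0.27, 95% interval -0.11 to 1.05, adjusted p = 0.861, trimmed-mean test). In CL, KO ran from 3.61 to 4.29 CPM and WT from 2.35 to 3.45 CPM. The inner values there were apart by 0.07 on the log2 scale, as for 4.35% of all genes with KO the higher. The log2 fold change in CL was 0.42 (SE 0.20, 95% interval -0.02 to 0.86, adjusted p = 0.878). By limma on the deposited values it was called higher on both sides (adjusted p = 0.0275 in PI and 0.0112 in CL). The median levels of Grin2d rest on 14 to 43 reads per library.

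For Grin2c the differences were -0.07 in PI (SE 0.13, adjusted p = 0.958) and 0.07 in CL (SE 0.15, adjusted p = 0.980), with overlapping groups. Grin3a differed by -0.01 in PI (SE 0.08, adjusted p = 0.990) and by 0.17 in CL (SE 0.10, 95% interval -0.04 to 0.38, adjusted p = 0.884). CL KO ran from 41.9 to 51.9 CPM and CL WT from 37.3 to 43.8 CPM for Grin3a. It was called higher in CL KO by limma on the deposited values (adjusted p = 0.0384).

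Levels were compared between subunits per kilobase (kb) of all annotated exons. In CL WT, Grin2a stood at 65.3 CPM per kb (62.4 to 70.2), Grin2b at 55.2 (52.0 to 57.9) and Grin1 at 33.6 (31.4 to 35.4). Grin3a stood at 3.44 CPM per kb (3.12 to 3.65), Grin2c at 2.03 (1.70 to 2.29) and Grin2d at 0.459 (0.360 to 0.530). This order held in all 4 groups, and neighbours in it did not overlap in any of them. The place of Grin1 depended on the length used. Per kb of the longest annotated transcript it stood at 76.2 CPM per kb in CL WT (71.2 to 80.3), overlapping Grin2a at 80.0 (76.5 to 86.0). By that length it was first in the other 3 groups, apart from Grin2a in PI WT (69.5 against 61.9) and overlapping it in CL KO and PI KO. Grin2b came after both by that length, and the order of Grin3a, Grin2c and Grin2d was the same by both.

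**Figure D3:**
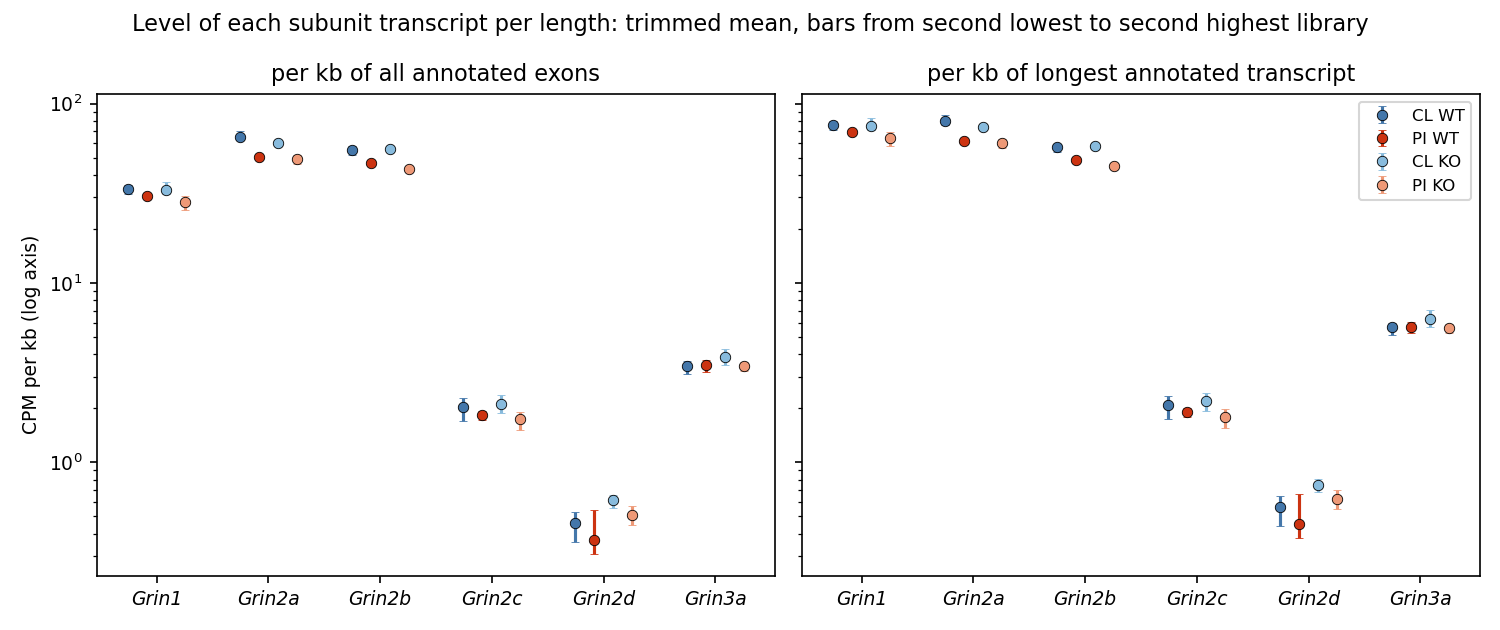
Level of each subunit transcript in CPM per kb (log axis) in the 4 groups, per kb of all annotated exons (left) and of the longest annotated transcript (right); points are trimmed means and bars run from the second lowest to the second highest library. Grin3a, Grin2c and Grin2d lie well below Grin1, Grin2a and Grin2b in both panels, and Grin1 moves up to the level of Grin2a on the right.

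Across the 12 libraries of a genotype, Grin2a and Grin2b varied together, with a Pearson r of 0.917 in WT and 0.958 in KO. Each such r mixes the difference between CL and PI with variation within groups, on drawn-in values, and is given as a description. Grin1 followed Grin2a (r of 0.839 in WT and 0.793 in KO) and Grin2b (0.90 and 0.79). Grin3a had an r of -0.24 to 0.17 with the other 5 in WT and of 0.27 to 0.74 in KO. Among 13360 genes, those most like Grin2a by the smaller of its r in WT and in KO were Dennd5a (0.974), Nefl (0.972) and Akap6 (0.971). Those most like Grin2b were Ncor1 (0.979), Jph4 (0.967) and Cplx2 (0.964). Nefl encodes a neurofilament protein, Jph4 a junctophilin of neurons and Cplx2 a complexin of the presynaptic terminal. For Grin1 they were Aifm3 (0.928), Flt3 (0.902) and Fry (0.901). Likeness was lower for the scarce subunits. The nearest genes were Atp6v0e (0.875) and Anapc5 (0.797) for Grin2c, and Ankrd10 (0.839), Gm9954 (0.805) and Hectd4 (0.802) for Grin2d. For Grin3a they were Kcnmb4 (0.758), Gstz1 (0.714) and Ldb2 (0.683).

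The subunits were set beside 64 other genes of the receptor pathway in 6 lists, of which 59 were listed. In PI against CL, 16 were called lower and 2 higher in WT, beside 5.40% and 5.20% of all genes. In KO 15 were called lower and 4 higher, beside 4.94% and 5.11% of all genes. The same shares stand beside the counts of each list below. The median log2 fold change was -0.09 in WT and -0.14 in KO. Of those called lower, 11 were called in both genotypes, and of those called higher, 1 was. Their interaction was called for 0 of 59 genes. At an unadjusted p under 0.05 there were 2 of 59, beside 4.55% of all genes, and limma on the deposited values called 7 of 59, beside 13.7% of all genes.

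**Figure D4:**
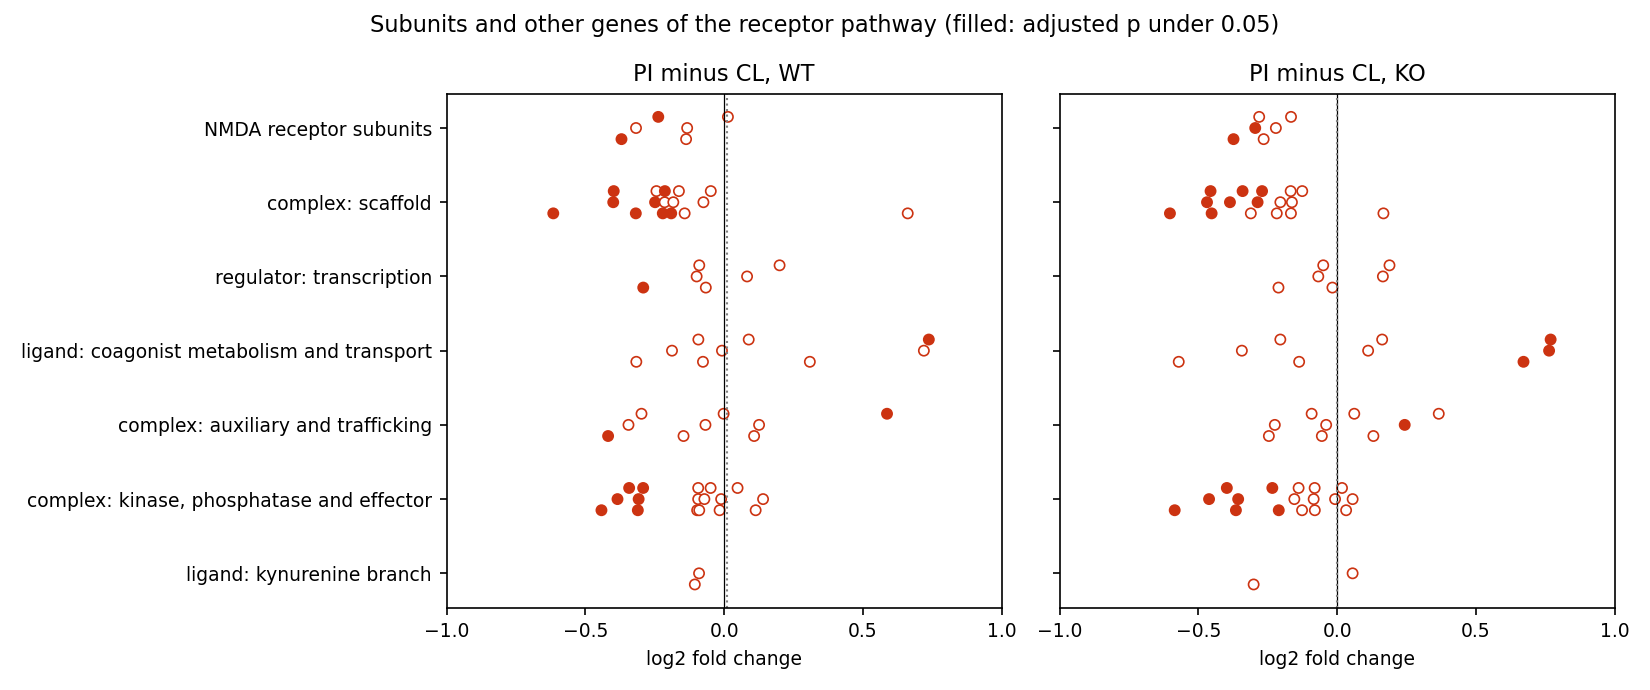
Log2 fold change of PI against CL (horizontal axis) for each subunit and each listed pathway gene, by list, in WT (left) and KO (right); filled points have an adjusted p under 0.05 by the trimmed-mean test and the dotted line is the median of all genes. In the scaffold list 8 of 16 genes are filled in each genotype, all to the left of 0, and the filled genes of coagonist supply are to the right.

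Scaffold genes, whose products hold the receptor in the postsynaptic density, were the list with the most calls. Of 16 genes, 8 were called lower in WT and 8 in KO, 5 of them in both, and none was called higher. The list's median was -0.21 in WT and -0.28 in KO. Homer1, which links receptors of the synapse to intracellular calcium stores, fell by 0.62 on the log2 scale in WT (SE 0.05, adjusted p = 1.68e-05, trimmed-mean test) and by 0.60 in KO (SE 0.11, adjusted p = 0.00525). Dlg4, which encodes PSD-95, the scaffold that binds the tails of the Grin2 subunits, had log2 fold changes of -0.21 in WT (adjusted p = 0.0176) and -0.20 in KO (adjusted p = 0.0696). Shank1, a scaffold below PSD-95, had -0.21 in WT (adjusted p = 0.267) and -0.47 in KO (adjusted p = 0.00677). Dlg3, Dlgap3 and Homer2 were also called lower in both genotypes.

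Among 17 kinases, phosphatases and effectors, 6 were called lower in WT and 7 in KO, the 6 of WT being among the 7. The list's median was -0.09 in WT and -0.14 in KO. Camk2a, the calcium-activated kinase that binds the Grin2b subunit, fell by 0.44 on the log2 scale in WT (SE 0.06, adjusted p = 0.000783, trimmed-mean test) and by 0.59 in KO (SE 0.06, adjusted p = 8.33e-05). The others called in both were Camk2g, the calcineurin subunits Ppp3ca and Ppp3cb, the tyrosine kinase Ptk2b and the exchange factor Rasgrf2. Fyn, a kinase that phosphorylates Grin2 subunits, had log2 fold changes of -0.09 in WT and 0.06 in KO (adjusted p = 0.464 and 0.619). Nos1, the nitric oxide synthase tethered to PSD-95, had 0.14 and -0.13 (adjusted p = 0.660 and 0.685). Dapk1, a kinase that binds the Grin2b subunit, had -0.02 and 0.02 (adjusted p = 0.917 and 0.920).

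Of 9 auxiliary and trafficking genes, 1 was called higher and 1 lower in WT, beside 5.20% and 5.40% of all genes. In KO 1 was called higher, beside 5.11% of all genes. Kif17, the motor that carries Grin2b vesicles along dendrites, rose by 0.59 on the log2 scale in WT (SE 0.11, adjusted p = 0.00383, trimmed-mean test) and had 0.37 in KO (SE 0.16, adjusted p = 0.179). Its adaptor genes differed. Lin7a fell by 0.42 in WT (adjusted p = 0.0322) and had -0.25 in KO (adjusted p = 0.148). Lin7c had 0.11 in WT (adjusted p = 0.234) and rose by 0.24 in KO (adjusted p = 0.0449), a call that was lost when libraries were centred on their median gene.

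Of 10 genes for the supply of the coagonists glycine and D-serine, 9 were listed. In WT 1 was called higher and in KO 3, and none was called lower in either. The list's median log2 fold change was -0.0077 in WT and 0.11 in KO. The estimate was below 0 for 5 of 9 genes in WT and 4 of 9 in KO. Slc1a4, a transporter of serine and other neutral amino acids, rose by 0.74 on the log2 scale in WT (SE 0.07, adjusted p = 5.79e-05, trimmed-mean test) and by 0.77 in KO (SE 0.09, adjusted p = 0.000329). Shmt2, which converts serine to glycine in mitochondria, had 0.72 in WT (SE 0.22, adjusted p = 0.0514) and rose by 0.76 in KO (SE 0.18, adjusted p = 0.0165). Psph, the last enzyme of serine synthesis, rose by 0.67 in KO (adjusted p = 0.0249) and had 0.31 in WT (adjusted p = 0.205); it was named after its values were seen. Srr, which makes D-serine, had -0.01 in WT and -0.21 in KO (adjusted p = 0.965 and 0.138). The gene for D-serine breakdown, Dao, was not listed. Of 6 genes of the kynurenine branch, which yields agonists and blockers of the receptor, 2 were listed (Kyat1 and Kyat3), and neither was called.

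Of 6 transcription regulators, 1 was called, Mef2c, a factor of neuronal activity genes. It fell by 0.29 on the log2 scale in WT (adjusted p = 0.0139, trimmed-mean test) and had -0.21 in KO (adjusted p = 0.0743). Rest, a repressor of neuronal genes, had 0.08 in WT and 0.19 in KO (adjusted p = 0.737 and 0.438). Between genotypes, 0 of the 59 pathway genes were called in PI or in CL, with 4 at an unadjusted p under 0.05 on each side, beside 5.75% of all genes in PI and 5.73% in CL. Limma on the deposited values called 6 in PI and 7 in CL, beside 16.5% and 16.1% of all genes. These counts are near or below the shares over all genes.

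Summed levels of the neuron and excitatory neuron markers were lower in PI than in CL, while those of other cell types went in different directions. Marker sums here and below use deposited values and run from the lowest to the highest library. These values were drawn in to group quartiles, so groups look further apart. For 10 neuron markers the summed deposited level was 8651 to 9162 CPM in CL WT against 7432 to 8149 CPM in PI WT. In KO it was 8472 to 8877 CPM in CL against 7233 to 7935 CPM in PI. Their median log2 fold change was -0.22 in WT and -0.18 in KO. In WT 3 were called lower and 1 higher, beside 5.40% and 5.20% of all genes. In KO 3 were called lower, beside 4.94% of all genes, and these were the same 3 genes, Nefl, Snap25 and Syt1. Snap25, a protein of synaptic vesicle fusion, fell by 0.30 in WT (adjusted p = 0.0167, trimmed-mean test) and by 0.31 in KO (adjusted p = 0.0112). Rbfox3 (NeuN) had -0.18 and -0.15 (adjusted p = 0.245 and 0.174). For 8 markers of excitatory neurons the sum was 1524 to 1681 CPM in CL WT against 1280 to 1399 CPM in PI WT, and 1586 to 1646 CPM in CL KO against 1277 to 1390 CPM in PI KO. Their median change was -0.12 in WT and -0.24 in KO. Slc17a7, the vesicular glutamate transporter of these neurons, had 0.01 and -0.10 (adjusted p = 0.968 and 0.597). The part of these neuron marker levels in the changes of Grin2a and Grin2b was not tested.

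Of 8 interneuron markers, 1 was called lower in WT and 2 were called higher in KO. Over all genes, 5.40% were called lower and 5.20% higher in WT, and 4.94% and 5.11% in KO. These shares also stand beside the other marker counts here. Their sum was 595 to 656 CPM in CL WT against 614 to 720 CPM in PI WT, and 620 to 653 CPM in CL KO against 660 to 715 CPM in PI KO. Gad1 had log2 fold changes of 0.11 and -0.04 (adjusted p = 0.483 and 0.791 by the trimmed-mean test), Sst had 0.52 and 0.48 (0.285 and 0.0549), and Pvalb had -0.35 and -0.42 (0.0705 and 0.0631). Astrocyte markers summed to 7573 to 7978 CPM in CL WT against 6577 to 6981 CPM in PI WT, and to 7587 to 8091 CPM in CL KO against 6385 to 7076 CPM in PI KO. Of 8 astrocyte markers, 3 were called lower and 1 higher in WT, and 1 lower and 1 higher in KO. Gja1, the gap junction gene of astrocytes, fell by 0.35 in WT (adjusted p = 0.0126) and by 0.43 in KO (adjusted p = 0.00185); it was named after its values were seen. The marker called higher was Aqp4, the water channel of astrocyte endfeet, which rose by 0.27 in WT (adjusted p = 0.0125) and by 0.41 in KO (adjusted p = 0.0140). Microglia markers summed to 168 to 180 CPM in CL WT against 185 to 209 CPM in PI WT, and to 178 to 193 CPM in CL KO against 201 to 244 CPM in PI KO. They did not all move together. Of 8 microglia markers, 4 were called higher and 1 lower in each genotype, the lower one being P2ry12 in both. Oligodendrocyte markers summed to 2152 to 2347 CPM in CL WT against 1507 to 2119 CPM in PI WT, with overlapping sums in KO (1715 to 2331 and 1660 to 1884 CPM). Of 8 oligodendrocyte markers, 1 was called lower in WT and 0 in KO, and none was called higher. None of 10 markers of neutrophils and monocytes was listed in the tables of PI with CL. Endothelial sums overlapped between CL and PI in both genotypes. Of the 8 endothelial markers, 7 had a higher estimate in PI in each genotype, with a median log2 fold change of 0.35 in WT and 0.14 in KO. In WT 0 were called, and in KO 1 was called lower and 0 higher.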

How the data were processed

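Ribosome-depleted total RNA was sequenced in 24 libraries, grouped by their titles. The authors deposited log2 CPM per gene in 4 tables of 12 columns, 1 for each pair of groups, per the file headers. Columns were matched to samples by title. The submitters' processing notes name the build mm10. The aligner, the counting, its use of strand, the filters and the scaling are not given in the sources used here. Tables were scaled separately, with median shifts of 0.0256 to 0.0364 (log2) between the tables of a library.

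No label records that values were drawn in to group quartiles. In 100% of genes and groups the outer pairs were tied. After solving for the second lowest value on the log2 scale, 72.8% to 87.8% of low values were whole reads within 0.03 read. As deposited, 8.96% to 13.8% were. The nearer of the tied libraries was taken, so the share by chance is above the 6% that holds for a single library. Depth came from the same steps. A count test was not run, because the outer values are not reads. The reads given for a subunit are its median level in a group times library depth, from lowest to highest over the groups. They are not intervals of counting error.

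The 4 inner values gave a trimmed mean per group, tested with the Winsorized sum of squares (6 degrees of freedom, 12 for the interaction), the trended empirical Bayes step of limma 3.58.1 (R 4.3.3), two-sided, with Benjamini-Hochberg adjustment. The test was tried on simulated data. Alternatives were limma on deposited values with and without a block, other priors, scalings, a pseudocount of 0.5, a filter at 1 log2 CPM, and limma without CL KO replicate 6, which was chosen after its depth was seen. CL and PI libraries with the same number come from the same animal, per the labels. Their deviations from the group means had an r of -0.01 to 0.21 in WT and -0.01 to 0.19 in KO. With libraries of other animals the mean r was -0.046 to 0.003 in WT and -0.043 to 0.001 in KO. The trimmed-mean test had no block, so it treated the CL and PI libraries of an animal as independent. Nothing in the labels says how the CL or PI tissue was dissected.

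The subunits, the pathway lists and the tests were chosen with earlier results of these data known. Named from each pathway list were up to 2 called genes per direction with the largest change, and Grin3b, Dlg4, Camk2a, Fyn, Nos1, Dapk1, Srr and Rest. Genes behind the counts called in both genotypes are listed without values. Also named were 8 marker genes and, for each subunit, the 3 genes with the highest smaller r over both tables of PI with CL. A few genes that the rule names are not reported here.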

Additional observations from a re-analysis of the deposited data

How the results depend on the processing

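The direction of every called subunit was kept under all alternatives run. The number of genes called by limma from the deposited values was 6459 for PI WT against CL WT, 6666 for PI KO against CL KO, 2388 between genotypes in PI, 2311 in CL, and 1940 for the interaction. Of the subunits it called 6 in PI KO against CL KO, 2 between genotypes in PI, 3 in CL and 1 for the interaction. Those fits use a spread that was reduced before deposit. With the replicate number as a block, the animal for PI against CL, the counts were 6614, 6759, 1800, 1868 and 2216 genes, with 3 subunits in PI WT against CL WT (3 also without the block) and then 6, 2, 3 and 1. Without CL KO replicate 6, limma called 6311 genes in PI KO against CL KO, 1779 in CL and 1533 for the interaction, with 6, 3 and 1 subunits. A prior without trend called 1015 genes in WT and 739 in KO, with 1 subunit in each. Grin3a in WT turned from 0.01 to -0.017 with libraries centred on the median gene. Such centring moved the share of higher calls from 49.1% to 37.8% in WT and from 50.8% to 38.5% in KO. A robust prior, upper-quartile scaling, log2(CPM + 0.5) and the filter on low levels kept the direction and call of all 30 subunit results. Levels per kb of the longest transcript in CL WT were 76.2 CPM per kb for Grin1, 80.0 for Grin2a, 0.562 for Grin2d and 5.64 for Grin3a. The median level of Grin2d rests on 14 to 43 reads per library and that of Grin2c on 40 to 111, and how much of their error comes from depth was not tested.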
